A study of Mus musculus with 17 samples.

Results

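Toll-like receptors are the family of innate immune receptors encoded in the mouse by the Tlr genes, and 10 of these genes (Tlr1, Tlr2, Tlr3, Tlr4, Tlr5, Tlr6, Tlr7, Tlr8, Tlr9 and Tlr13) were taken by symbol from the 55421 genes of a total RNA-Seq count table of cultured mouse lung cells. Every mouse carried both floxed copies of Ephb4, a receptor tyrosine kinase gene, and the Col1a2-CreERT2 transgene, whose Cre is made in cells that use the Col1a2 promoter, such as fibroblasts, and acts once 4-hydroxytamoxifen is given. Ephb4 CKO mice received 4-hydroxytamoxifen (1 mg per day on 5 days from 4 weeks of age) and Ephb4 control mice received corn oil, so the drug and the loss of Ephb4 cannot be told apart. At 6 weeks of age the mice were given bleomycin (1.2 U/kg), which damages the lung so that fibrosis follows, or PBS, and the lungs were taken 14 days later. Adherent lung cells were grown in serum, passaged once to enrich fibroblasts and lysed without further treatment. Each of the 17 libraries came from 1 mouse. The Ephb4 control PBS, Ephb4 control bleomycin and Ephb4 CKO bleomycin groups had 4 mice each and the Ephb4 CKO PBS group had 5. Of the 10 receptor genes, 8 passed the filter on low counts (above 10 CPM, which are counts scaled to the depth of the library, in at least 2 libraries), as did 10481 genes in all; Tlr5 and Tlr9 did not.

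A Toll-like receptor binds a microbial or damage-associated molecule through a leucine-rich-repeat domain and signals through an intracellular TIR domain. The products of Tlr1, Tlr2, Tlr4, Tlr5 and Tlr6 act at the cell surface, whereas those of Tlr3, Tlr7, Tlr8, Tlr9 and Tlr13 sense nucleic acids in endosomes, which they reach with the help of the chaperone encoded by Unc93b1. All except the Tlr3 product use the adaptor encoded by Myd88, and the products of Tlr3 and Tlr4 use that of Ticam1; both routes lead to NF-kB and interferon regulatory factors. Macrophages of the lung carry most of the family, and fibroblasts are also known to carry some members.

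The cultures were labelled primary fibroblasts, but their marker genes showed a mixture in which macrophage genes were high. From flow cytometry of surface proteins the study reported that lung cells passaged once were fibroblasts of high purity. RNA levels are another measure, and the cells of that cytometry are not stated to be those sequenced. The summed level of 19 genes of macrophages (Csf1r, Cd68 and Lyz2 among them) ran from 1343 to 47665 CPM and that of 14 fibroblast genes (among them Col1a1, Pdgfra and Lum) from 14.2 to 11846 CPM. Fibroblast sums were 5269 to 11846 CPM in Ephb4 control bleomycin mice, 14.2 to 6933 CPM after PBS, and at most 1807 CPM in either Ephb4 CKO group. Col1a1, which defines fibroblasts, was at 0.380 CPM in 1 Ephb4 control PBS library. The fibroblast score (mean log2 CPM over the 12 genes kept) was 7.69 ± 0.32 (SD, n = 4) in Ephb4 control bleomycin mice and 2.14 ± 3.47 (SD, n = 4) after PBS, and the ranges did not overlap (2-sided exact permutation test, p = 0.0286, the smallest that 4 mice against 4 allow, and 0.114 after adjustment over 8 comparisons). It was 2.83 ± 2.67 (SD, n = 4) in Ephb4 CKO bleomycin mice, again apart from their controls (exact permutation p = 0.0286, adjusted 0.114). The macrophage score (19 genes) was 8.30 ± 0.35 in Ephb4 CKO bleomycin mice and 6.76 ± 1.98 (SD, n = 4 each) in their controls (exact permutation p = 0.0571, adjusted 0.152). Ephb4 control bleomycin mouse 1 stood apart, with a macrophage score of 3.81 against 6.81 to 9.48 in the other 16 libraries. Lists of endothelial and epithelial genes summed to 46.1 to 271 CPM and 25.5 to 1995 CPM, in ranges that overlapped between the 4 groups, and lists of B cell, T and NK cell, dendritic cell, neutrophil and mast cell genes each summed to at most 93.7 CPM in any library. In such bulk cultures fewer cells of a type and less RNA of a gene per cell cannot be told apart.

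Ephb4 itself had a lower mean in Ephb4 CKO mice, but the ranges of the genotypes overlapped. After PBS it was at 23.2, 3.91, 32.5 and 2.45 CPM in the Ephb4 control mice (15.5 ± 14.8, SD, n = 4). The Ephb4 CKO mice had 7.80, 22.0, 8.65, 4.02 and 4.10 CPM (9.30 ± 7.38, SD, n = 5). After bleomycin Ephb4 was at 66.5, 13.7, 36.5 and 40.7 CPM in the Ephb4 control mice (39.4 ± 21.7, SD, n = 4). The Ephb4 CKO mice then had 14.2, 9.53, 9.77 and 5.13 CPM (9.66 ± 3.71, SD, n = 4). The ranges overlapped both times. Genes of the sex chromosomes went against the recorded sex in 3 libraries (Ephb4 control bleomycin mouse 2, Ephb4 CKO bleomycin mice 1 and 2). The overlap of Ephb4 after bleomycin came from Ephb4 control mouse 2 (13.7 CPM) and Ephb4 CKO mouse 1 (14.2 CPM), which are among these libraries. The total count per library was 66540022 to 120554468, in ranges that overlapped between all 4 groups.

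Per kilobase of exon, the scale on which levels of different genes can be set side by side, 5 receptors made up most of the family's transcripts. The mean level ± SD over the 17 libraries was 49.5 ± 46.7 CPM per kb for Tlr2, 47.0 ± 34.2 for Tlr13, 35.2 ± 21.5 for Tlr7, 31.2 ± 21.5 for Tlr8 and 18.5 ± 6.82 for Tlr4. A lower tier followed, with 3.79 ± 1.93 CPM per kb for Tlr6, 3.18 ± 4.30 for Tlr1 and 2.66 ± 2.74 for Tlr3. Tlr9 at 0.353 ± 0.591 CPM per kb and Tlr5 at 0.184 ± 0.100 CPM per kb came last. Of the steps between neighbours, those between the tiers held in each library: Tlr4 was above Tlr6 and Tlr3 above Tlr9 in 17 of 17 libraries. Within the tiers the order of neighbours varied between libraries. Tlr2 was above Tlr13 in 7 of 17 libraries, Tlr7 above Tlr8 in 9, Tlr1 above Tlr3 in 8 and Tlr9 above Tlr5 in 10, so these did not differ beyond their spread, whereas Tlr13 was above Tlr7, Tlr8 above Tlr4 and Tlr6 above Tlr1 in 13 of 17 each. Tlr13 was the highest member in 7 libraries, Tlr2 in 6, Tlr7 in 2 and Tlr8 in 2.

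**Figure D1:**
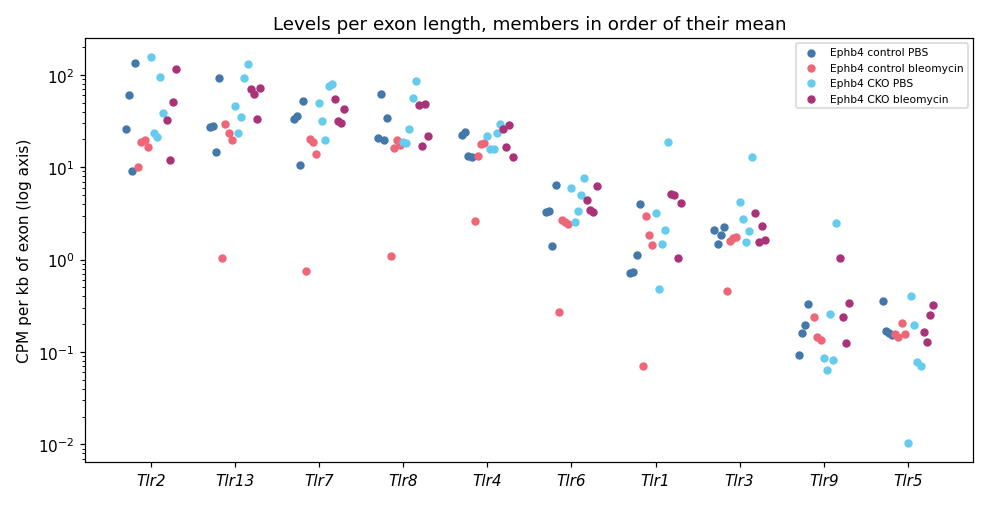
Level of each of the 10 receptor genes in each of the 17 libraries, in CPM per kilobase of exon on a log axis, with points coloured by group and genes in the order of their mean; the library with no Tlr9 count is not drawn. Tlr2, Tlr13, Tlr7, Tlr8 and Tlr4 form an upper tier and Tlr9 and Tlr5 the lowest, and the lowest points of Tlr13, Tlr7, Tlr8 and Tlr4 belong to 1 Ephb4 control bleomycin mouse.

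Tlr2 had the widest range of shares of the family in percentage points. As a share of the summed CPM per kilobase of the 10 genes it ran from 8.11% to 60.9%, with a median of 19.0%. The highest share was in Ephb4 control bleomycin mouse 1, the library with the lowest macrophage score, and the next, 50.9%, in Ephb4 CKO PBS mouse 1. Tlr13 ran from 6.21% to 41.2%, and Tlr6, although low, was steady at 1.44% to 2.71%.

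**Figure D2:**
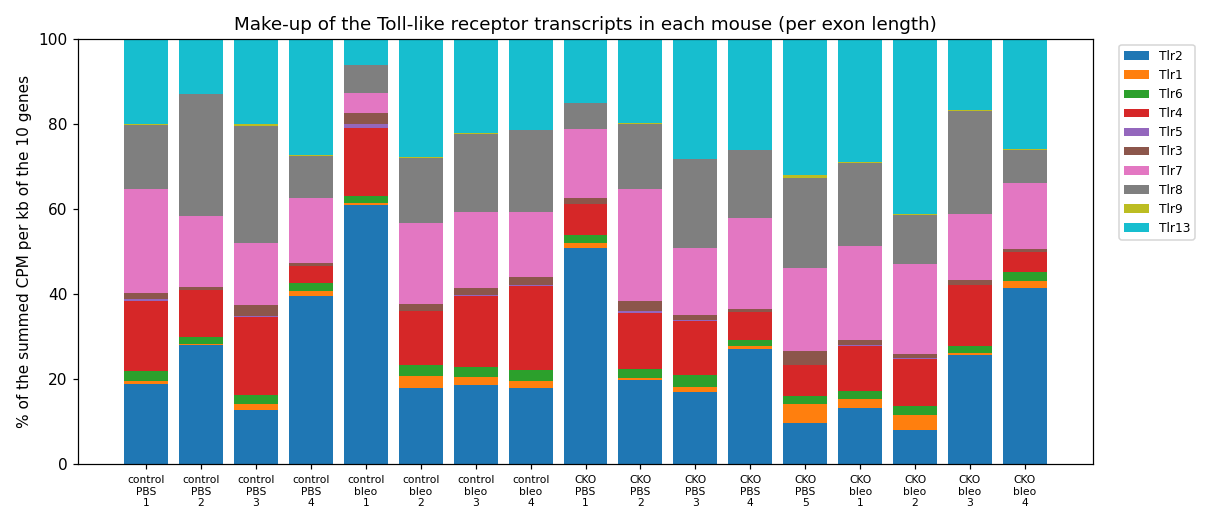
Stacked bars of the share of each receptor gene in the summed CPM per kilobase of the 10 genes, 1 bar per mouse, grouped by genotype and treatment. Tlr2 takes 60.9% in Ephb4 control bleomycin mouse 1 and 8.11% in Ephb4 CKO bleomycin mouse 2.

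The sequence next to the start of some members is given here because several members, Tlr13, Tlr6, Tlr7 and Tlr8 above all, varied with macrophage genes across libraries (values follow), and the ETS factor PU.1, encoded by Spi1, is known to set gene expression in macrophages. Spi1 itself was at 6.29 to 281 CPM. RefSeq promoter windows on GRCm38 ran from 250 bases before to 50 after a start. They were available for 8 of the 10 members (10 windows), all but Tlr4 and Tlr7, and were searched on both strands. The stretches below end before the annotated gene, run 5′ to 3′, and carry the ETS core AGGAAG (or CTTCCT on the other strand) in capitals.
Tlr13, chrX:106143025-106143203 (forward strand): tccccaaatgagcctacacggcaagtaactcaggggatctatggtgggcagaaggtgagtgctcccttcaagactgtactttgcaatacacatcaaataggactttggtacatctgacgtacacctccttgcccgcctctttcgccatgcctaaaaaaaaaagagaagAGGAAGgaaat
Tlr1, chr5:64933564-64933808 (reverse strand): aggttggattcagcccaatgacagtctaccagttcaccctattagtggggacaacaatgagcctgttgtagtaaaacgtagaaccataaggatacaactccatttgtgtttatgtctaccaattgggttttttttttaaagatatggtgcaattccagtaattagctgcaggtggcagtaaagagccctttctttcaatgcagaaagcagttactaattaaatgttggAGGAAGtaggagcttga
Tlr2, chr3:83841768-83841858 (reverse strand): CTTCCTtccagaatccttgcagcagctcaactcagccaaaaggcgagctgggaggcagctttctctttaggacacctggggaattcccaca
Tlr8, chrX:167264330-167264579 (reverse strand): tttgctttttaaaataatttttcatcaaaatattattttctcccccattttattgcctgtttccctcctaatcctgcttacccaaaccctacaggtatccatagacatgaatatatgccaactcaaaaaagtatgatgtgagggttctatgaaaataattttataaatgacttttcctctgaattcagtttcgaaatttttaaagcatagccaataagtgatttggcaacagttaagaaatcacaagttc
The core started 82 bases before the RefSeq start of Tlr13, 22 before the start shown of Tlr1 and 250 before that of Tlr2, whose window held a second match after the start. It was not found in the window of Tlr8 or in the other RefSeq window of Tlr1. Of the 10 windows of members 6 held it (also both of Tlr6 and that of Tlr9), against 35.4% of 32851 promoter windows of the same length. The longer PU.1 core GAGGAAGT, which overlaps the ETS core, was in windows of Tlr1 and Tlr9 and in 3.20% of all windows. The NF-kB motif GGGA-N-TTTCC was found for Tlr3 (0.411% of all windows), the interferon-response motif GAAA-NN-GAAA for Tlr6 (3.44%), the AP-1 motif TGANTCA for Tlr9 (7.81%) and the C/EBP motif TTGCGCAA for none (0.183%). Only these letters were searched, so other forms of each motif were not looked for in any member. Such matches describe letters and not sites in use.

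Among the receptors of the cell surface, Tlr2 (ENSMUSG00000027995; chromosome 3 from 83836272 to 83841767, reverse strand, GRCm38) recognises lipoproteins as a partner of the Tlr1 or Tlr6 product. Tlr2 was at 77.5, 183, 27.7 and 406 CPM in the 4 Ephb4 control PBS mice and at 30.5, 56.9, 59.6 and 49.6 CPM in those given bleomycin. It was at 469, 71.4, 64.4, 287 and 117 CPM in Ephb4 CKO PBS mice and at 98.6, 36.5, 153 and 347 CPM after bleomycin. The 4 Ephb4 control bleomycin values lay close together and low, with 59.6 CPM the highest, whereas the highest of each other group was 347 CPM or more. The Ephb4 control bleomycin range lay below that of the Ephb4 CKO PBS group and overlapped those of the remaining groups. No share of all genes was taken for the pair without overlap, which differs in genotype and treatment.

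Tlr1 (ENSMUSG00000044827; chromosome 5 from 64924679 to 64933563, reverse strand) and Tlr6 (ENSMUSG00000051498; chromosome 5 from 64952031 to 64960097, reverse strand) are neighbours on the chromosome and encode the alternative partners of the Tlr2 product. Tlr1 was at 2.37, 2.45, 3.71 and 13.4 CPM in Ephb4 control PBS mice, 0.237, 10.0, 6.16 and 4.76 CPM in Ephb4 control bleomycin mice, 10.8, 1.63, 4.95, 6.97 and 62.5 CPM in Ephb4 CKO PBS mice and 17.1, 16.8, 3.46 and 13.8 CPM in Ephb4 CKO bleomycin mice. Mouse 5 of the Ephb4 CKO PBS group was far above all others, and the groups overlapped. Tlr6 was at 12.1, 12.6, 5.28 and 23.7 CPM in Ephb4 control PBS mice and 0.998, 10.1, 9.60 and 8.95 CPM after bleomycin. In Ephb4 CKO mice Tlr6 was at 22.5, 9.52, 12.7, 18.8 and 28.5 CPM after PBS and 16.6, 12.8, 12.2 and 23.4 CPM after bleomycin. After bleomycin each Ephb4 CKO value of Tlr6 was above each Ephb4 control value, with the nearest at 12.2 and 10.1 CPM.

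Tlr4 (ENSMUSG00000039005; chromosome 4 from 66827584 to 66930284, forward strand), the receptor of bacterial lipopolysaccharide, was the steadiest of the upper tier. Tlr4 was at 125, 133, 73.6 and 71.6 CPM in Ephb4 control PBS mice and 14.7, 74.4, 98.0 and 101 CPM after bleomycin, and at 122, 88.4, 88.5, 129 and 164 CPM in Ephb4 CKO PBS mice and 145, 91.5, 158 and 71.2 CPM after bleomycin. Apart from Ephb4 control bleomycin mouse 1, the libraries lay within a range of 71.2 to 164 CPM and the groups overlapped. Tlr5 (ENSMUSG00000079164; chromosome 1 from 182954788 to 182976044, forward strand), the receptor of flagellin, ranged over 0.739 to 1.69 and 0.701 to 0.988 CPM in the Ephb4 control PBS and bleomycin groups and over 0.0494 to 1.91 and 0.619 to 1.54 CPM in the Ephb4 CKO groups, which rests on 4 to 132 counts per library.

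**Figure D3:**
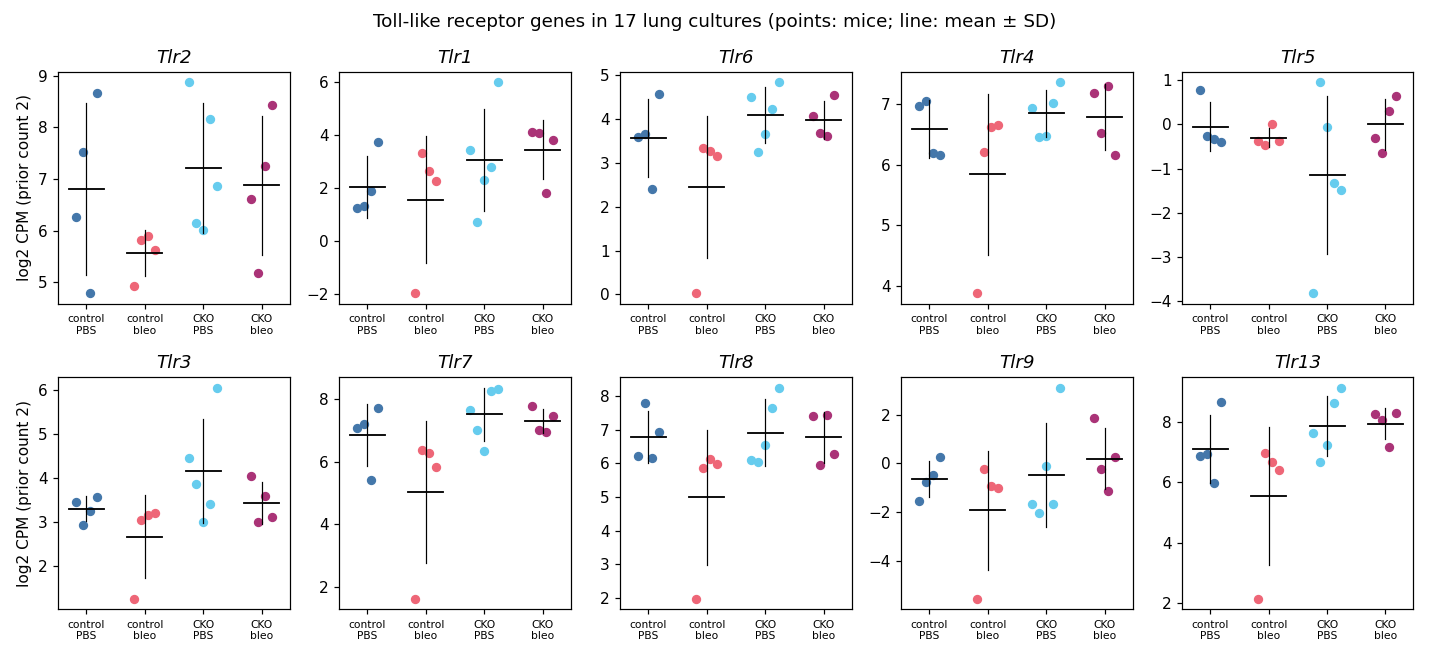
Log2 CPM (prior count of 2) of the 10 receptor genes, 1 panel per gene, with 1 point per mouse and the mean ± SD of each of the 4 groups (4, 4, 5 and 4 mice); the vertical scale differs between panels. The lowest point of the second group belongs to mouse 1 in 9 of the 10 panels.

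Among the endosomal receptors, Tlr3 (ENSMUSG00000031639; chromosome 8 from 45395665 to 45411080, reverse strand), the sensor of double-stranded RNA, shares 381 exon bases with a gene on the opposite strand, which the strand-specific counting kept apart. Tlr3 was at 10.9, 7.60, 9.56 and 11.9 CPM in Ephb4 control PBS mice and 2.37, 8.21, 8.95 and 9.23 CPM after bleomycin. In Ephb4 CKO mice Tlr3 was at 22.0, 14.5, 8.02, 10.6 and 66.8 CPM after PBS and 16.6, 8.02, 12.02 and 8.59 CPM after bleomycin. The value of 66.8 CPM in Ephb4 CKO PBS mouse 5 was 3.04 times the next one, and the groups overlapped.

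Tlr7 (ENSMUSG00000044583; chromosome X from 167304929 to 167330558, reverse strand) and Tlr8 (ENSMUSG00000040522; chromosome X from 167242696 to 167264329, reverse strand) are adjacent genes on the X chromosome that encode sensors of single-stranded RNA. Tlr7 was at 135, 146, 43.2 and 212 CPM in Ephb4 control PBS mice and 3.09, 82.7, 77.2 and 56.8 CPM after bleomycin, and at 202, 129, 81.1, 306 and 322 CPM in Ephb4 CKO PBS mice and 221, 129, 124 and 176 CPM after bleomycin. The 4 Ephb4 CKO bleomycin values of Tlr7 were all above the 4 Ephb4 control bleomycin values. Tlr8 was at 73.8, 223, 71.2 and 123 CPM in Ephb4 control PBS mice and 3.92, 58.1, 70.0 and 63.0 CPM after bleomycin, and at 68.1, 65.7, 93.1, 202 and 305 CPM in Ephb4 CKO PBS mice and 170.4, 61.3, 174 and 78.1 CPM after bleomycin. In Ephb4 control mice the 2 ranges of Tlr8 were apart by a small step, from 70.0 to 71.2 CPM.

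Tlr13 (ENSMUSG00000033777; chromosome X from 106143204 to 106160493, forward strand), a sensor of bacterial ribosomal RNA, was at 117, 121, 62.5 and 399 CPM in Ephb4 control PBS mice and 4.44, 126, 101 and 84.0 CPM after bleomycin. In Ephb4 CKO mice Tlr13 was at 197, 102, 152, 394 and 558 CPM after PBS and 304, 265, 144 and 309 CPM after bleomycin. After bleomycin no Ephb4 CKO value fell among the Ephb4 control values, with the nearest at 144 and 126 CPM. Tlr9 (ENSMUSG00000045322; chromosome 9 from 106222598 to 106226883, forward strand), the sensor of unmethylated CpG DNA, was at 0.321, 0.560, 0.684 and 1.16 CPM and 0, 0.840, 0.506 and 0.466 CPM in the Ephb4 control PBS and bleomycin groups and at 0.296, 0.221, 0.899, 0.288 and 8.58 CPM and 3.58, 0.826, 0.439 and 1.18 CPM in the Ephb4 CKO groups. Its highest values came from Ephb4 CKO PBS mouse 5 (685 counts) and Ephb4 CKO bleomycin mouse 1 (386 counts), and Ephb4 control bleomycin mouse 1 had 0 counts.

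The first comparison asked how the receptors differed between cultures from bleomycin-injured and uninjured Ephb4 control lungs. All 8 receptors tested had lower estimates after bleomycin, and the median log2 fold change was -1.03 beside -0.062 over all 10481 genes, but none passed the test. Means here and in the other comparisons are ± SD over the 4 mice of a group, or 5 for Ephb4 CKO PBS. Tlr2, which had the smallest p, was 174 ± 168 CPM after PBS and 49.1 ± 13.1 CPM after bleomycin, a log2 fold change of -1.83 (SE 0.81, adjusted p = 0.335) by the edgeR quasi-likelihood test, adjusted over all genes by Benjamini-Hochberg. Tlr8 went from 123 ± 70.8 CPM to 48.8 ± 30.3 CPM and Tlr7 from 134 ± 69.4 CPM to 54.9 ± 36.3 CPM. Their edgeR log2 fold changes were -1.38 (SE 0.72, adjusted p = 0.384) and -1.33 (SE 0.69, adjusted p = 0.388). These 3 belong to the upper tier of levels, and Tlr1, of the lower tier, was nearest to 0 at -0.062, with a wide 95% interval from -2.27 to 2.14. The log2 fold change was -1.17 for Tlr13, -0.89 for Tlr6, -0.55 for Tlr4 and -0.52 for Tlr3, and, below the filter, -0.59 for Tlr9 and -0.33 for Tlr5.

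By edgeR 0 of the 8 receptors had an adjusted p under 0.05 (0.335 to 0.981), as did 0.00% of all genes tested. DESeq2 and limma voom also called 0 of the 8, against 166 and 0 of the 10481 genes. An unadjusted p under 0.05 was reached in edgeR by 1 of the 8, Tlr2 (unadjusted p = 0.0385), which was lower, against 14.3% of all genes (lower: 7.98% of all genes). DESeq2 and limma voom had 2 of the 8 each, against 17.9% and 16.9% of all genes. The ranges of the groups did not overlap for 1 of the 8, Tlr8, against 8.82% of all genes. In the same comparison 16 of 19 macrophage genes had lower estimates (median log2 fold change -0.86) and 12 of 12 fibroblast genes had higher ones (median 2.57). The macrophage score differed by -1.07, with ranges that overlapped (exact permutation p = 0.457, adjusted 0.751). With a mouse left out that difference ran from -1.50 to -0.085. Whether the make-up of the cultures accounts for the receptor values was not tested. With the macrophage score as a covariate the median over the receptors was -0.41, and with the fibroblast score it was -0.13. In these fits 7.94% and 2.80% of all genes had an unadjusted p under 0.05 (edgeR). The fibroblast scores of the groups did not overlap (7.22 to 7.92 after bleomycin, at most 6.96 after PBS). The fit with that score therefore cannot separate it from bleomycin. Without Ephb4 control bleomycin mouse 1 the median was -0.60, and without Ephb4 control PBS mouse 4 it was -0.61, with 0 of 8 receptors at an unadjusted p under 0.05 each time. All 4 bleomycin mice but only 1 of the 4 PBS mice bear animal numbers that start with 12 (the others start with 11), and with that number series as a covariate the median was -0.69, with 7 of 8 receptors lower. Sex was uneven too: by sex genes PBS mouse 1 and bleomycin mice 2, 3 and 4 were male and the others female. With recorded sex as a covariate the median was -0.88, with 1 of 8 receptors higher. Of the 8, 0 then had an unadjusted p under 0.05 (12.9% of all genes, edgeR).

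The second comparison set Ephb4 CKO against Ephb4 control mice without injury. After PBS all 8 receptors had higher estimates in Ephb4 CKO cultures, with a median log2 fold change of 0.56 beside -0.020 over all genes, and none passed the test. The 4 Ephb4 control mice are those of the first comparison. Tlr3 had the smallest p, with 9.99 ± 1.85 CPM in controls and 24.4 ± 24.3 CPM in Ephb4 CKO cultures, a log2 fold change of 1.28 (SE 0.55, unadjusted p = 0.0346, adjusted p = 1.00, edgeR). In both cases the Ephb4 CKO mean was pulled up by mouse 5: Tlr1 was 5.48 ± 5.29 CPM and 17.4 ± 25.4 CPM, with a log2 fold change of 1.68 (SE 1.03). For the others the log2 fold change was 0.71 for Tlr13, 0.64 for Tlr7, 0.47 for Tlr6, 0.25 for Tlr8, 0.24 for Tlr2 and 0.22 for Tlr4. Below the filter it was 1.59 for Tlr9 and -0.48 for Tlr5.

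Here edgeR gave 0 of 8 receptors an adjusted p under 0.05 (0.00% of all genes). DESeq2 and limma voom called 0 of the 8, against 1 and 0 of the 10481 genes. At an unadjusted p under 0.05 there was 1 of 8 in edgeR, which was higher (1.99% of all genes, 1.43% in that direction), 1 in DESeq2 (3.33% of all genes) and 0 in limma voom (0.458%). No receptor had groups that did not overlap (0.191% of all genes). The estimates rested largely on Ephb4 CKO PBS mouse 5, which also had the highest macrophage score of all libraries (9.48): without it the median was 0.29, Tlr3 was at 0.48, Tlr1 at 0.19, Tlr8 at -0.18 and Tlr9 at -0.61. Without Ephb4 control PBS mouse 4 the median was 0.97.

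The third comparison set Ephb4 CKO against Ephb4 control mice after bleomycin, the setting in which the study looked for an effect of Ephb4 on fibrosis. All 8 receptors had higher estimates in the Ephb4 CKO cultures, with a median log2 fold change of 1.32 beside 0.0093 over all genes, yet none passed the test after adjustment. The Ephb4 control mice here are the bleomycin group of the first comparison, so the 2 sets of estimates are not independent. Tlr7 was 54.9 ± 36.3 CPM in control and 162 ± 45.7 CPM in Ephb4 CKO cultures, 3.01 times as high in the edgeR fit, with a log2 fold change of 1.59 (SE 0.70, adjusted p = 0.232). Tlr13 was 78.9 ± 52.5 CPM and 255 ± 77.2 CPM, with an edgeR log2 fold change of 1.72 (SE 0.77, adjusted p = 0.236). These endosomal receptors of the upper tier had little spread in the Ephb4 CKO group relative to its mean, unlike Tlr2. Tlr2 was 49.1 ± 13.1 CPM and 159 ± 134 CPM, with an edgeR log2 fold change of 1.71 (SE 0.80, adjusted p = 0.248). Tlr6 was 7.42 ± 4.31 CPM and 16.2 ± 5.13 CPM, with an edgeR log2 fold change of 1.15 (SE 0.56, adjusted p = 0.252). The other 4 were Tlr8 at 1.35, Tlr1 at 1.29, Tlr4 at 0.73 and Tlr3 at 0.68, and the 2 receptors below the filter were at 1.73 for Tlr9 and 0.38 for Tlr5.

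Adjusted p-values of the 8 receptors ran from 0.232 to 0.469 in edgeR, so that 0 of 8 were called (0.00% of all genes). DESeq2 and limma voom called 0 of the 8 as well, against 399 and 0 of the 10481 genes. At an unadjusted p under 0.05 there were 2 of 8, Tlr7 (unadjusted p = 0.0376, edgeR) and Tlr13 (unadjusted p = 0.0412, edgeR), both higher, against 20.2% of all genes (1157 of 10481 genes in that direction); DESeq2 and limma voom had 4 of 8 each, against 2725 and 2415 of the 10481 genes. Groups did not overlap for Tlr6, Tlr7 and Tlr13, 3 of 8 receptors, against 22.3% of all genes. In the same comparison 19 of 19 macrophage genes had higher estimates (median log2 fold change 1.20) and 12 of 12 fibroblast genes had lower ones (median -3.77). Whether the make-up of the cultures accounts for the receptor values was not tested. With the macrophage score as a covariate the median over the receptors was 0.39, with 8 of 8 higher. In that fit 1 of 8 had an unadjusted p under 0.05, against 5.07% of all genes. This was Tlr13 at 0.77 (unadjusted p = 0.0487, adjusted p = 0.859, edgeR). With the fibroblast score the median over the receptors was 0.74, with 7 of 8 higher and Tlr2 at -0.82. The fibroblast scores of the groups did not overlap here either, so that fit cannot separate the score from genotype.

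Ephb4 control bleomycin mouse 1, the library that stood apart, added to the size of this difference. Without it the median over the receptors was 0.90, with 8 of 8 higher, Tlr7 at 1.16 and Tlr13 at 1.29. Leaving out the 3 libraries with discordant sex genes it was 1.45, with 8 of 8 higher. All 4 Ephb4 control bleomycin mice are of number series 12, as are Ephb4 CKO bleomycin mice 1 and 2, whose sex genes went against the record. These 2 mice had Tlr13 at 304 and 265 CPM, Tlr7 at 221 and 129 CPM and Tlr6 at 16.6 and 12.8 CPM. Each value was above all 4 controls, which had to be so because the full groups did not overlap for these receptors. The Tlr2 of these 2 mice (98.6 and 36.5 CPM) fell on both sides of the highest control. With the series as a covariate the median was 1.05, with 8 of 8 higher and 0 of 8 at an unadjusted p under 0.05.

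**Figure D4:**
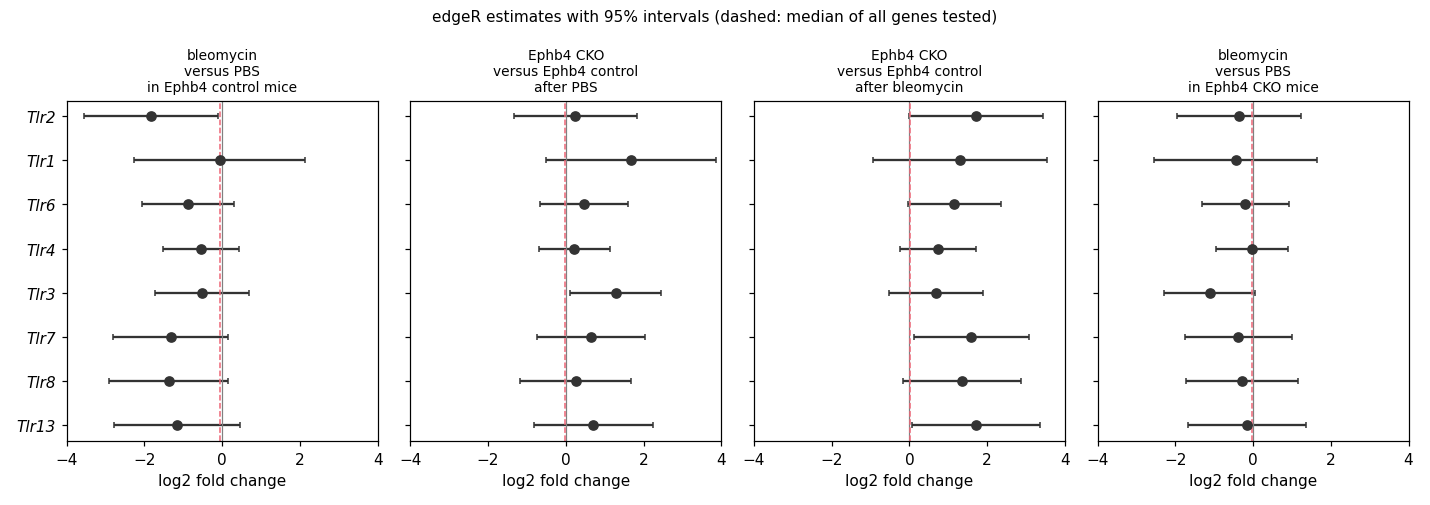
Log2 fold changes of the 8 receptors tested, from edgeR, with 95% intervals, in 4 comparisons (1 panel each); the dashed line is the median over all 10481 genes. The 8 estimates are below 0 for bleomycin in Ephb4 control mice and above 0 for Ephb4 CKO against control after bleomycin, and most intervals include 0.

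Bleomycin against PBS in Ephb4 CKO mice gave estimates whose 95% intervals were wide and included 0 for each of the 8 receptors. All 8 receptors had lower estimates after bleomycin, and the median log2 fold change was -0.33 beside -0.029 over all genes. Tlr3 was lowest at -1.12 (SE 0.55, unadjusted p = 0.0594, adjusted p = 1.00, edgeR), going from 24.4 ± 24.3 CPM to 11.3 ± 3.95 CPM, and Tlr4 was nearest to 0 at -0.036, with a 95% interval from -0.96 to 0.89. The estimates of Tlr13 and Tlr7 were -0.15 (95% interval -1.67 to 1.36) and -0.38 (95% interval -1.76 to 1.01). By edgeR 0 of 8 had an adjusted p under 0.05 (0.00% of all genes) and 0 of 8 an unadjusted p under 0.05 (0.964% of all genes), where DESeq2 had 1 (1.77% of all genes) and limma voom 0 (0.267%). No receptor had groups apart (0.0859% of all genes). Without Ephb4 CKO PBS mouse 5 the median was 0.049, with 4 of 8 receptors higher and Tlr3 at -0.32, so the shared direction rested on that mouse.

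Whether the bleomycin difference itself depended on genotype was tested as an interaction. The estimate, the bleomycin difference in Ephb4 CKO minus that in Ephb4 control mice, was positive for 6 of 8 receptors with a median of 0.82 on the log2 scale beside -0.0030 over all genes (positive for 49.7% of them). It was largest for Tlr2 at 1.47 (SE 1.08, adjusted p = 0.916) and was 1.10 for Tlr8, 1.01 for Tlr13, 0.95 for Tlr7, 0.68 for Tlr6 and 0.51 for Tlr4. Tlr3 (-0.59) and Tlr1 (-0.39) were negative. By edgeR 0 of 8 had an adjusted p under 0.05 (0.00% of all genes) and 0 of 8 an unadjusted p under 0.05 (3.46% of all genes), and DESeq2 and limma voom gave 0 on both counts (5.20% and 2.86% of all genes at an unadjusted p under 0.05). The differences in Ephb4 control and Ephb4 CKO mice were therefore not shown to differ for any receptor. Leaving out Ephb4 control bleomycin mouse 1 brought the median to 0.39.

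The genes that work with the receptors were counted in lists of 71 genes, of which 66 passed the filter and 0 had an adjusted p under 0.05 in any comparison (edgeR). At an unadjusted p under 0.05, and in their direction, these lists are read against the shares of all genes given for each comparison. Their median log2 fold change was -0.41 for bleomycin in Ephb4 control mice. There 50 of 66 were lower (5821 of 10481 genes), and 13 were lower at an unadjusted p under 0.05 (836 of 10481 genes). For Ephb4 CKO against control after bleomycin the median was 0.45, with 48 of 66 higher (50.7% of all genes). At an unadjusted p under 0.05 there were 16 higher and 1 lower (1157 and 962 of 10481 genes, edgeR). After PBS the median was 0.21, with 52 of 66 higher in Ephb4 CKO cultures (46.4% of all genes).

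Among co-receptors, Cd36, a scavenger receptor that helps the Tlr2 product bind lipids, gave the smallest p of those named. Cd36 was at 1029.7, 1513, 463 and 2243 CPM in Ephb4 control PBS mice and 24.3, 334, 316 and 217 CPM after bleomycin, and at 2642, 823, 929, 3414 and 3145 CPM in Ephb4 CKO PBS mice and 1578, 1657, 1098 and 1774 CPM after bleomycin. The Ephb4 control bleomycin values were below those of the 3 other groups without overlap. Of all genes 8.82% had no overlap with Ephb4 control PBS mice and 22.3% none with Ephb4 CKO bleomycin mice. No such share was taken against Ephb4 CKO PBS mice, which differ in genotype and treatment. The edgeR log2 fold change of Cd36 was -2.59 (SE 0.68, adjusted p = 0.268) for bleomycin in Ephb4 control mice and 2.80 (SE 0.68, adjusted p = 0.187) for Ephb4 CKO against control after bleomycin. Cd14, which hands lipopolysaccharide to the Tlr4 complex, ranged over 42.1 to 489 CPM and 43.3 to 140.4 CPM in the Ephb4 control groups and over 39.1 to 2184 CPM and 90.5 to 209.5 CPM in the Ephb4 CKO groups, with the single high value in Ephb4 CKO PBS mouse 1. Ly96, whose product MD-2 binds lipopolysaccharide on the Tlr4 protein, stayed at 2.51 to 20.9 CPM.

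Of the chaperones, Unc93b1 was 99.5 ± 54.7 CPM in control and 228 ± 60.2 CPM in Ephb4 CKO bleomycin mice without overlap, an edgeR log2 fold change of 1.22 (SE 0.59, adjusted p = 0.250). Hsp90b1, which encodes the chaperone gp96 that folds most receptors of the family, went the other way, from 595 ± 221 CPM to 352 ± 13.8 CPM, also without overlap, with an edgeR log2 fold change of -0.73 (SE 0.30, adjusted p = 0.223). The adaptor genes Myd88 and Ticam1 had estimates nearer to 0: after bleomycin Myd88 was 26.6 ± 5.40 CPM and 35.1 ± 6.63 CPM and Ticam1 11.7 ± 1.99 CPM and 14.9 ± 3.48 CPM in Ephb4 control and Ephb4 CKO mice, with log2 fold changes of 0.43 (95% interval -0.30 to 1.15) and 0.38 (95% interval -0.23 to 0.99). Pik3ap1, the adaptor that links the receptors to PI3 kinase, was 82.0 ± 50.9 CPM and 266 ± 76.3 CPM without overlap, an edgeR log2 fold change of 1.73 (SE 0.69, adjusted p = 0.220). In this comparison 22.3% of all genes had groups without overlap.

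Of 16 kinase and ubiquitin ligase genes, 6 were lower at an unadjusted p under 0.05 for bleomycin in Ephb4 control mice and 7 higher for Ephb4 CKO against control after bleomycin. Irak2, a kinase of the Myd88 route, had edgeR log2 fold changes of -1.11 (SE 0.32, adjusted p = 0.275) and 0.86 (SE 0.32, adjusted p = 0.218) in these comparisons, and Ripk1, a kinase of the Ticam1 route, had -0.35 and 0.37. Of 9 transcription factor genes, 9 had higher estimates in Ephb4 CKO cultures after bleomycin (4 at an unadjusted p under 0.05). Irf7, an interferon regulatory factor, ranged over 4.29 to 69.0 CPM in control and 19.98 to 301 CPM in Ephb4 CKO bleomycin mice, with an edgeR log2 fold change of 3.24 (SE 1.495, adjusted p = 0.243), and Nfkb1, an NF-kB subunit, was at 0.38 on the same scale. Of 8 restraints of the pathway, 8 had higher estimates there. Tnfaip3, the ubiquitin-editing inhibitor A20, was at 1.05 (SE 0.51, adjusted p = 0.252) in edgeR, and Tollip, which dampens the Irak kinases, at 0.13.

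Targets that the receptors induce followed another pattern. All 11 that were kept had higher estimates in Ephb4 CKO than in Ephb4 control cultures after PBS, against 46.4% of all genes. Their median log2 fold change was 2.22, with 4 higher at an unadjusted p under 0.05 in edgeR (1.43% of all genes). For bleomycin in Ephb4 CKO mice all 11 had lower estimates, against 5848 of 10481 genes. Their median there was -2.96, with 6 lower at an unadjusted p under 0.05 in edgeR (75 of 10481 genes). Both comparisons use the same Ephb4 CKO PBS mice, and the list was not refitted without any of them. Il1b, a cytokine, was at 12.3, 118, 48.6 and 33.0 CPM in the control and 3727, 5.08, 28.03, 27.3 and 55.3 CPM in the Ephb4 CKO group after PBS, so that mouse 1 alone set the mean of the latter. After bleomycin Il1b was at 189.6, 2.26, 3.99 and 7.06 CPM in control and 3.09, 1.66, 98.5 and 23.6 CPM in Ephb4 CKO cultures. Ptgs2, the inducible cyclooxygenase, ranged over 21.2 to 432 CPM and 50.8 to 1395 CPM in Ephb4 control and Ephb4 CKO PBS mice. Its highest value was in Ephb4 CKO PBS mouse 1, as for Il1b. Of 9 genes for endogenous ligands, 7 had lower estimates in Ephb4 CKO than in control cultures after bleomycin, with a median of -2.07 and 0 at an unadjusted p under 0.05. They include matrix genes that fibroblasts make, such as Fn1 (-2.07) and Tnc (-2.64). Tlr11 and Tlr12, mouse receptors outside the set described here, had at most 70 and 27 counts in a library.

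Across the 17 libraries most receptors tracked the macrophage score. Tlr13 did so most closely, with Pearson's r = 0.948 (permutation p = 1e-05, the smallest that 100000 permutations can give) and Spearman's rho = 0.873 (permutation p = 2e-05). Over 16 relations (8 receptors, 2 scores) the Benjamini-Hochberg adjusted permutation p-values of Tlr13 were 0.00016 and 0.00032. Without the 2 libraries farthest from the median score, Ephb4 control bleomycin mouse 1 and Ephb4 CKO PBS mouse 5, r was 0.772. Tlr6 (r = 0.938, rho = 0.831, 0.739 without the 2 libraries), Tlr7 (0.921, 0.708 and 0.631) and Tlr8 (0.914, 0.740 and 0.566) behaved alike, with adjusted permutation p-values of rho of 0.00048, 0.00573 and 0.00342. Tlr1 had r = 0.835 and rho = 0.672 (adjusted permutation p of rho 0.00907), and r = 0.497 without the 2 libraries.

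Tlr4 and Tlr3 did not share this relation once the extremes were set aside. Their r of 0.826 and 0.7098 with the macrophage score was 0.111 and -0.0725 without the 2 libraries, and their rho of 0.360 and 0.272 had adjusted permutation p-values of 0.192 and 0.33, so the relation rests on those 2 libraries.

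Tlr2 was set apart by the fibroblast score. Its r with that score was -0.824 and its rho -0.833 (adjusted permutation p-values 0.000267 and 0.0004), and r was -0.802 without Ephb4 control bleomycin mice 1 and 2, the libraries farthest from the median, and -0.799 after the group means were subtracted. With the macrophage score Tlr2 had r = 0.520 and rho = 0.627. Tlr7 had r = -0.662 with the fibroblast score over all libraries and -0.389 after the group means were subtracted, and Tlr13 had -0.559 and -0.262. In the 2 sorted runs of columns of the deposited table (8 and 9 libraries, which are not stated to be batches) r of Tlr13 with the macrophage score was 0.959 and 0.973, and r of Tlr2 with the fibroblast score was -0.927 and -0.759. The scores and the receptors come from the same libraries and share their depth and scaling.

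**Figure D5:**
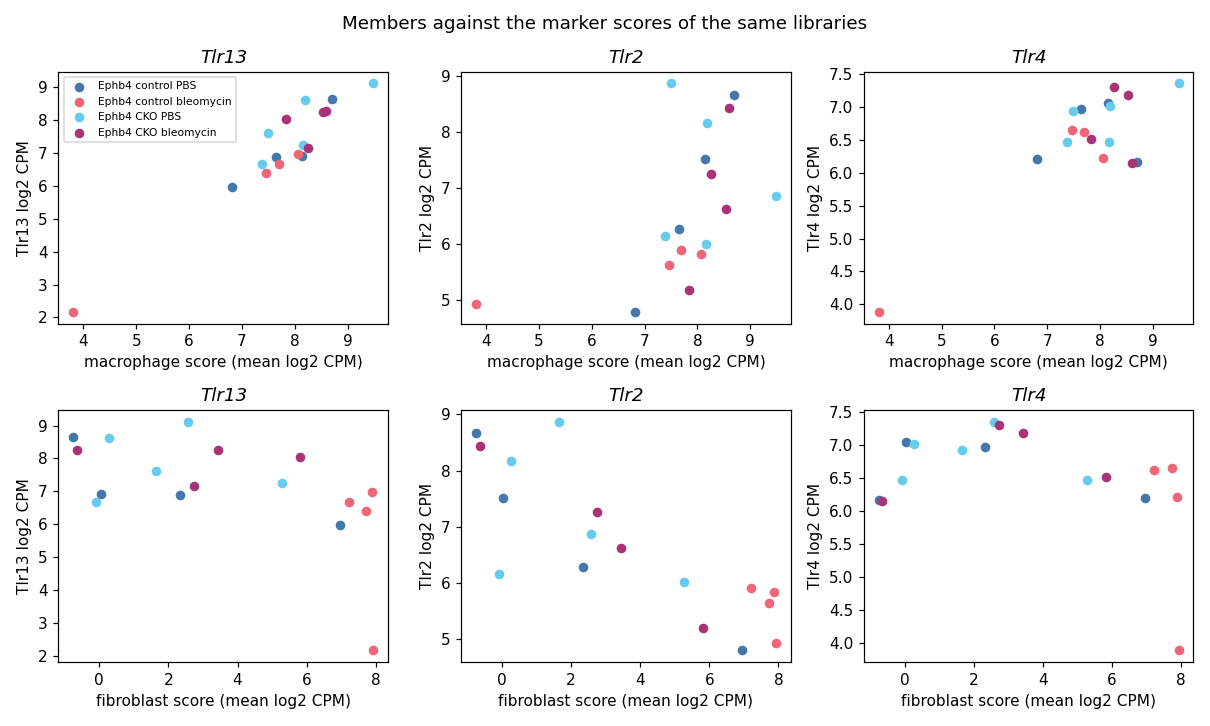
Log2 CPM of Tlr13, Tlr2 and Tlr4 (vertical axes) against the macrophage score (upper row) and the fibroblast score (lower row), each a mean log2 CPM of marker genes, with 1 point per library coloured by group. Tlr13 is higher where the macrophage score is higher, Tlr2 is lower where the fibroblast score is higher (r = -0.824), and Tlr4 is level apart from 1 low library.

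The genes most like each receptor were sought by Pearson's r of log2 CPM over the 17 libraries, with Spearman's rho beside it; being the highest of 10481 genes less the receptors, they carry no p. For Tlr13 they were Arhgap25 (r = 0.988, rho = 0.973), Cd84 (r = 0.985, rho = 0.975) and Cd300c2 (r = 0.982, rho = 0.951). For Tlr6 they were Vav1 (r = 0.992, rho = 0.963), Mpeg1 (r = 0.985, rho = 0.941) and Cd68 (r = 0.985, rho = 0.973), and for Tlr7 Cd84 (r = 0.978, rho = 0.902), AU022793 (r = 0.977, rho = 0.949) and Rab8b (r = 0.973, rho = 0.919). Tlr8 had Dclre1c (r = 0.959, rho = 0.900), March1 (r = 0.956, rho = 0.858) and Itga4 (r = 0.953, rho = 0.914), and Tlr1 had Gpr65 (r = 0.976, rho = 0.978), Ptpro (r = 0.971, rho = 0.961) and Cd180 (r = 0.970, rho = 0.956). Several of these, such as Cd68, Vav1 and Cd84, are genes of blood-derived cells. For Tlr2 the list was Akip1 (r = 0.954, rho = 0.922), Clec4e (r = 0.942, rho = 0.902) and Glyr1 (r = 0.939, rho = 0.900), for Tlr4 Vcpip1 (r = 0.956, rho = 0.843), Cpne3 (r = 0.947, rho = 0.811) and Ptprc (r = 0.925, rho = 0.730) and for Tlr3 Aftph (r = 0.928, rho = 0.578), Usp25 (r = 0.924, rho = 0.762) and Zup1 (r = 0.923, rho = 0.669), the last with rho well below r. Between receptors the closest pairs were Tlr6 with Tlr13 (r = 0.971), Tlr6 with Tlr7 (0.967) and Tlr7 with Tlr13 (0.962), and the least alike was Tlr1 with Tlr2 (0.384).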

How the data were processed

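The 10 members, the pathway and marker lists and the tests were chosen with earlier results of these data known. Strand-specific total RNA of cultured lung cells was sequenced as 75 bp paired ends from 1 mouse per library, so that p-values measure the spread between mice. Per the labels and the submitters' processing notes, the authors trimmed reads with cutadapt (1.18), aligned them with HISAT2 (2.1.0) to GRCm38 with GENCODE annotation, and made the deposited gene counts with StringTie, whose script derives counts from coverage. Raw counts of 17 libraries (66540022 to 120554468 per library, median 93075927) were used as deposited. Genes above 10 CPM in at least 2 libraries were kept (10481 of 55421), and all 17 libraries were fitted with 1 mean per group by the quasi-likelihood test of edgeR (4.0.16, R 4.3.3) after TMM normalization, with Benjamini-Hochberg adjustment over all genes kept and a threshold of 0.05. Tlr5 and Tlr9, below the filter, were fitted with all genes that had a count. Printed CPM use TMM-scaled library sizes, and log2 CPM a prior count of 2. The biological coefficient of variation was 0.557, which limits what 4 or 5 mice per group can show. The study fitted DESeq2 with a batch number as a covariate, which is not given per library in the sources used here; the deposited columns form 2 alphabetically sorted runs (8 and 9), not stated to be those batches, and were tried in its place. Alternatives were other normalizations and filters, DESeq2 (1.42.0), limma voom (3.58.1), covariates (recorded sex, animal number series, column run, marker scores), the compared groups alone, and libraries left out. Marker scores were means of log2 CPM, compared by 2-sided exact permutation tests. Scripts were tested on simulated counts. All 10 members are named. Of each pathway list the 2 genes with the highest mean CPM are named, plus Myd88, Ticam1, Cd14, Ly96 and Unc93b1, and for each receptor the 3 genes with the highest r. Gene positions are from GENCODE M21, with which 55154 of 55421 identifiers matched, and promoter windows are from RefSeq on GRCm38. No pair of libraries was identical.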

Additional observations from a re-analysis of the deposited data

Results flagged for a closer look

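Of 48 sets of values of 1 measure in 1 group, 10 held a sample whose gap to its nearest neighbour was large beside the range of the group. The gap was judged by Dixon's ratio (95% critical value) on log2 CPM or on a marker score. Receptor values are printed below as CPM, a scale on which the ratios and the samples marked would differ. Chance marks about 1 set in 20, and sets from the same libraries are not independent. In 8 of the 10 the sample was Ephb4 control bleomycin mouse 1. That mouse had 0.998 CPM of Tlr6 (next lowest 8.95), 14.7 CPM of Tlr4 (74.4), 2.37 CPM of Tlr3 (8.21), 3.09 CPM of Tlr7 (56.8), 3.92 CPM of Tlr8 (58.1), 4.44 CPM of Tlr13 (84.0) and 0 CPM of Tlr9 (0.466). Its macrophage score was 3.81 (next lowest 7.46), whereas its Tlr2, at 30.5 CPM, was not set apart in this way. Tlr1 was low in Ephb4 CKO bleomycin mouse 3, at 3.46 CPM against 13.8 CPM or more in the other mice of the group. Tlr5 was high in Ephb4 control PBS mouse 1, at 1.69 CPM against at most 0.813 CPM. The cause of each was not tested.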

How the results depend on the processing

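The number of receptors with an adjusted p under 0.05 was 0 in all 5 comparisons under each of 15 other settings that could be fitted (14 for the interaction, for which the compared groups are all groups) and with each of the 17 mice left out. Over all genes DESeq2 called 166 genes for bleomycin in Ephb4 control mice and 399 for Ephb4 CKO against control after bleomycin where edgeR called 0. With 1 mouse left out the median log2 fold change of the receptors ran from -1.26 to -0.60 for bleomycin in Ephb4 control mice, from 0.29 to 0.97 for Ephb4 CKO against control after PBS, from 0.90 to 1.60 after bleomycin, from -0.50 to 0.049 for bleomycin in Ephb4 CKO mice and from 0.39 to 1.13 for the interaction. Some single estimates changed sign, and the cause was not tested. For bleomycin in Ephb4 control mice the log2 fold changes became Tlr1 0.47 with recorded sex as a covariate, Tlr1 0.63 and Tlr9 0.43 with the number series, Tlr1 0.50 with the macrophage score, Tlr1 0.10, Tlr2 1.15, Tlr6 0.077 and Tlr5 0.11 with the fibroblast score and Tlr1 0.34 with both outlying mice left out, and with a mouse left out Tlr5 -0.49 to 0.039 and Tlr1 -0.56 to 0.81. For Ephb4 CKO against control after PBS they became Tlr8 -0.23 and Tlr9 -0.71 with the macrophage score and Tlr8 -0.18 and Tlr9 -0.67 with both outlying mice left out, and with a mouse left out Tlr2 -0.32 to 1.03, Tlr8 -0.18 to 0.74 and Tlr9 -0.61 to 1.97. For Ephb4 CKO against control after bleomycin they became Tlr2 -0.82 and Tlr5 -0.071 with the fibroblast score. For bleomycin in Ephb4 CKO mice they became Tlr4 0.033 with upper quartile normalization, Tlr9 0.082 with recorded sex as a covariate, Tlr9 0.44 and Tlr13 0.040 with the number series, Tlr9 0.33 with the column run, Tlr1 0.12 and Tlr9 0.47 with the macrophage score, Tlr13 0.0029 with the fibroblast score, Tlr2 0.26 with the 3 libraries of discordant sex left out, Tlr1 1.04, Tlr4 0.098, Tlr8 0.15, Tlr9 1.82 and Tlr13 0.24 with both outlying mice left out and Tlr1 0.35 and Tlr13 0.057 with limma voom, and with a mouse left out Tlr2 -1.05 to 0.20, Tlr1 -0.74 to 1.04, Tlr4 -0.25 to 0.15, Tlr8 -0.54 to 0.15, Tlr9 -1.33 to 1.80 and Tlr13 -0.36 to 0.24. For the interaction they became Tlr1 0.031 with the column run, Tlr2 -1.45, Tlr6 -0.20 and Tlr7 -0.024 with the fibroblast score, Tlr9 -0.27 with the 3 libraries of discordant sex left out, Tlr1 0.70 with both outlying mice left out, Tlr1 0.014 with DESeq2 and the column run and Tlr1 1.07 with limma voom, and with a mouse left out Tlr9 -0.74 to 2.38, Tlr1 -1.26 to 1.10 and Tlr3 -0.94 to 0.21. The setting without both outlying mice (Ephb4 control bleomycin mouse 1 and Ephb4 CKO PBS mouse 5) was chosen after seeing the data. With a mouse left out the macrophage score differed by -0.020 to 0.61 between genotypes after PBS and by -0.027 to 0.50 between treatments in Ephb4 CKO mice, and the fibroblast score by -1.17 to 1.40 and by -0.096 to 2.06; without the 3 libraries of discordant sex the last was -0.89. No paired analysis was possible because replicate numbers only name the mice. Levels of Tlr5 and Tlr9 rest on few counts.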
